A study of Mus musculus with 30 samples.

Results

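The genes described here are 10 members of the transforming growth factor beta (TGF-beta) and Smad signalling pathway, measured in cultured mouse helper T cells. They were chosen by name, as the rows for Tgfb1, Tgfb3, Tgfbr1, Tgfbr2, Tgfbr3, Smad2, Smad3, Smad4, Smad7 and Skil among the 23420 genes of the deposited tables. No member was at 0 in any of the 30 libraries, and all 10 passed the filter on low counts that left 12611 genes for testing. The libraries were RNA-seq of CD4 T cells from C57BL/6 mice that carry 2 reporters, Foxp3-GFP and IL-10 Thy1.1, so that cells making interleukin 10 (IL-10), a cytokine that restrains immune responses, can be sorted. Naive cells were activated with soluble anti-CD3 at 2.5 ug/ml and irradiated, CD4-depleted splenocytes at 6 feeder cells per T cell. After 72 h, live GFP-negative T cells were sorted into an IL-10 positive and an IL-10 negative compartment, and 2000 cells were lysed for each library. All groups therefore shared the reporter background, the feeders and the removal of GFP-positive cells.

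The 5 cultures differed in their cytokines, and each gave 3 libraries per compartment, hence 10 groups. For Th1 the cytokine was 20 ng/ml of IL-12, for Th2 it was 20 ng/ml of IL-4, and for Tr1 it was 25 ng/ml of IL-27. The Th17 kind that the labels call non-pathogenic received 2 ng/ml of human TGF-beta 1 together with 25 ng/ml of IL-6. The pathogenic kind, here pTh17, received 25 ng/ml of IL-6 as well, with 20 ng/ml each of IL-1 beta and IL-23. Th17 was thus the culture to which TGF-beta was added, and its comparison with pTh17 also differs by IL-1 beta and IL-23, so the effects of these cytokines cannot be told apart. These are cells polarised in culture, and each Th17 culture was labelled by its cytokines rather than by a test of pathogenicity in these libraries.

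TGF-beta is secreted in a latent complex, and the freed dimer binds the type II receptor TGFBR2, which recruits and phosphorylates the type I receptor TGFBR1. The active type I receptor phosphorylates Smad2 and Smad3, which join Smad4 and enter the nucleus to regulate genes together with other transcription factors. Among the induced genes are Smad7 and Skil, whose products damp the pathway. In T cells TGF-beta restrains activation and Th1 and Th2 differentiation, supports regulatory T cells and, with IL-6, starts Th17 differentiation.

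The total of expected counts per library ran from 4.39 to 11.85 M, and the 30 pairs of replicate libraries correlated at 0.971 to 0.992 on log CPM. No pair was within sampling noise, with chi-square per degree of freedom from 2.85 to 12.4. The farthest pairs, at 11.3 and 12.4, were those of Tr1 IL-10 positive replicate 18 with replicates 16 and 17. Il10 was higher in the IL-10 positive group of each culture, for example 380.5 ± 13.04 against 5.73 ± 1.06 CPM in Th1 and 23.5 ± 1.71 against 1.66 ± 1.38 CPM in Th17 (SD, n = 3). Here CPM is the count relative to the library total in the usual unit, after scaling of totals by the TMM method. Cd4 averaged 512.7 to 857.4 CPM over the groups. Foxp3, the regulator of regulatory T cells, averaged at most 2.47 CPM in any group. A list of 12 cell cycle genes moved with the reporter: all 12 were higher in the IL-10 positive cells of Th1, Th17, pTh17 and Tr1 and 6 were in Th2. Its summed level went from a range of 403.5 to 508.7 CPM over Th17 IL-10 negative libraries to 3455 to 3705 CPM over the positive ones. Of the B cell list, 5 of 5 tested genes were higher in pTh17 IL-10 positive libraries, with a sum of 34.3 to 58.1 CPM against 2.59 to 4.70 CPM in the negative ones and no marker at 0. The summed myeloid list was higher in positive than in negative libraries, without overlap, in Th1 (66.6 to 76.2 against 15.5 to 22.0 CPM), Tr1 (14.2 to 16.5 against 3.56 to 4.47 CPM) and pTh17 (13.1 to 19.6 against 6.51 to 8.31 CPM), with 0 or 1 of its 7 genes at 0 in these groups. Of its 5 tested genes 2, 1 and 3 were higher there. In Th1 and Tr1 the sum was mostly that of Itgam, an integrin gene, at 69.1 CPM in Th1 and 14.6 CPM in Tr1 positive cells (group means), while Cd14 averaged at most 0.303 CPM in the groups of these cultures. The sum of 6 megakaryocyte and platelet genes was lower in positive libraries, without overlap, in Th17 (33.3 to 37.4 against 126.0 to 143.2 CPM), Th2 (175.5 to 190.6 against 386.0 to 417.3 CPM), Th1 and Tr1. That sum was nearly all Itgb3, another integrin gene (33.99 against 132.7 CPM in Th17), and Pf4, a defining platelet gene, averaged at most 0.197 CPM in any group. Both CD8 T cell markers were higher in the positive cells of Th1, Th2 and Tr1, with sums of at most 51.4 CPM. The regulatory T cell list, whose sum was mostly Il2ra and Ctla4, had a higher sum without overlap in the positive cells of all 5 cultures, for example 811.5 to 845.0 against 410.8 to 434.5 CPM in Th17, where 2 of its 7 genes were higher and 5 lower. The part of these lists in the differences below was not tested. These were bulk samples, in which fewer cells of a type and less RNA per cell cannot be told apart.

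The members differed widely in level and in how far the groups moved them. In TPM, a unit of transcript abundance scaled for gene length that allows genes to be compared, Tgfbr2 had the highest median level over the 30 libraries, at 66.7 TPM. It was followed by Smad3 at 19.9, Skil at 11.98, Smad2 at 11.4, Smad4 at 8.88, Tgfbr3 at 8.39, Tgfb3 at 7.30, Smad7 at 5.90, Tgfbr1 at 4.29 and Tgfb1 at 2.06 TPM. On the CPM scale, used from here on because TPM values of some groups were shifted as a whole, the highest group mean exceeded the lowest by 23.1-fold for Tgfb3 and 18.3-fold for Smad7. That ratio was 9.28 for Smad3, 7.05 for Tgfbr2, 5.69 for Skil and 4.93 for Tgfb1, and it lay between 2.39 and 3.30 for Smad2, Tgfbr3, Tgfbr1 and Smad4. The plot of all members by group shows these levels library by library.

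**Figure D1:**
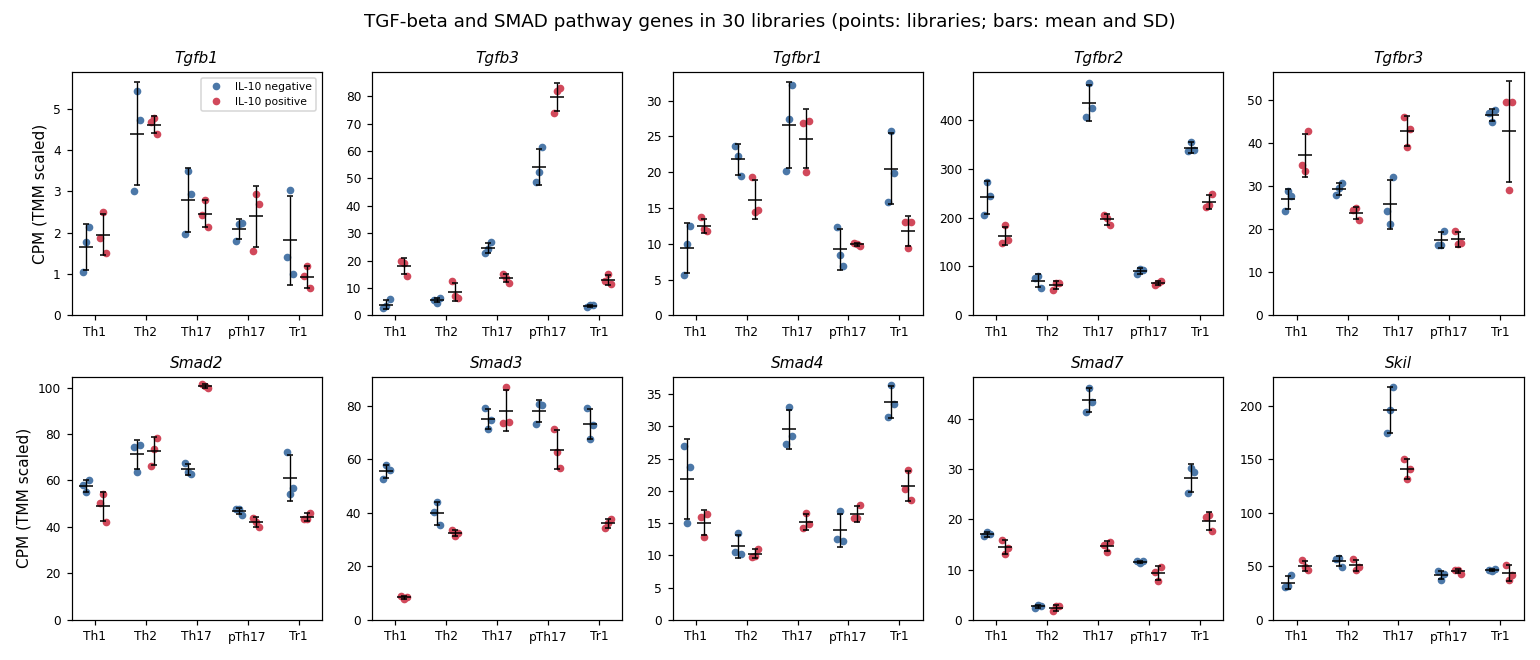
Level of each of the 10 members in the 30 libraries, in CPM (TMM scaled, linear axes), by culture; blue points are IL-10 negative and red points IL-10 positive libraries, and bars give the mean and SD of 3. The highest group is Th17 IL-10 negative for Tgfbr2 (436 CPM), Smad7 (43.7 CPM) and Skil (196 CPM), while Tgfb3 is highest in pTh17 IL-10 positive cells (79.6 CPM).

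Promoter windows are printed for the member with the highest level, Tgfbr2, and the member with the widest difference between IL-10 compartments, Smad3, to show what precedes their transcripts. Each is the 250 bases before the RefSeq start (GRCm38.p6) on the minus strand, at chr9:116175364-116175613 for Tgfbr2 and chr9:63757995-63758244 for Smad3. Capitals mark the short Smad binding motif CAGAC, searched on both strands.
Tgfbr2: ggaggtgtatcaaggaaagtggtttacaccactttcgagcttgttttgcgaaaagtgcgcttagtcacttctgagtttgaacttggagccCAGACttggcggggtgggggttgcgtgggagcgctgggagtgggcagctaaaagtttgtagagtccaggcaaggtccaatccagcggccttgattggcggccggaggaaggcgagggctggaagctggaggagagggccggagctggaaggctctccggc
Smad3: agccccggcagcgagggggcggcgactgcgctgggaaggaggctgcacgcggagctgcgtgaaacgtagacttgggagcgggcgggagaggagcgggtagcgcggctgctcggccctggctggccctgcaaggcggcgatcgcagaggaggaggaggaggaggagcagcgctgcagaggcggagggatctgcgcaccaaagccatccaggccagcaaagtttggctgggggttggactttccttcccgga
The Tgfbr2 window held 1 match, 160 bases before the start, and these letters were not in the Smad3 window. The motif is common: 42.2% of 32851 promoter windows of that length held it on either strand. The longer palindrome GTCTAGAC, whose strands read alike and which does not contain the shorter motif, was in 0.167% of windows and in neither of these. Windows were kept for 4 of the 10 members, the other 2 being Tgfb1 and Tgfbr1. Smad2, Smad4 and Smad7 were left out by choice before the search, and Tgfb3, Tgfbr3 and Skil had no usable entry. A Tgfbr1 window held 1 match to the short motif, 203 bases before its start. Another Tgfbr1 window and that of Tgfb1 did not hold it. A match is a description of the letters and not a measured binding site.

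Within each culture the first comparison was IL-10 positive minus IL-10 negative, tested with edgeR's quasi-likelihood test and called at a Benjamini-Hochberg adjusted p below 0.05 over all 12611 genes. In Th17, 7 of 10 members were called, 2 higher and 5 lower, where 58.2% of all tested genes were called (29.2% higher and 28.9% lower). In Th1, 7 were called, 3 higher and 4 lower, against 43.8% of all genes (23.5% and 20.4%). Tr1 had 7 calls, 1 higher and 6 lower, against 34.7% of all genes (20.5% and 14.2%), and these 7 were called too without Tr1 IL-10 positive replicate 18 (Tgfb3 at 1.96, Smad3 at -1.08 and Tgfbr2 at -0.65 on the log2 scale). In pTh17, 3 members were called, 1 higher and 2 lower, against a background of 18.5% (10.1% and 8.33%). In Th2, 2 were called, 1 higher and 1 lower, against 21.8% (12.3% and 9.49%). The median log2 difference of the members was -0.55 in Tr1 and -0.33 in Th17, with -0.01 in Th1, 0.06 in pTh17 and -0.17 in Th2; the medians of all genes lay between -0.04 and 0.05. For the mean difference over the 5 cultures, 6 members were called, 2 higher and 4 lower, against 57.8% of all genes (29.6% and 28.2%). Shares near these backgrounds, as in the mean and in Th2, say nothing particular about the pathway.

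**Figure D2:**
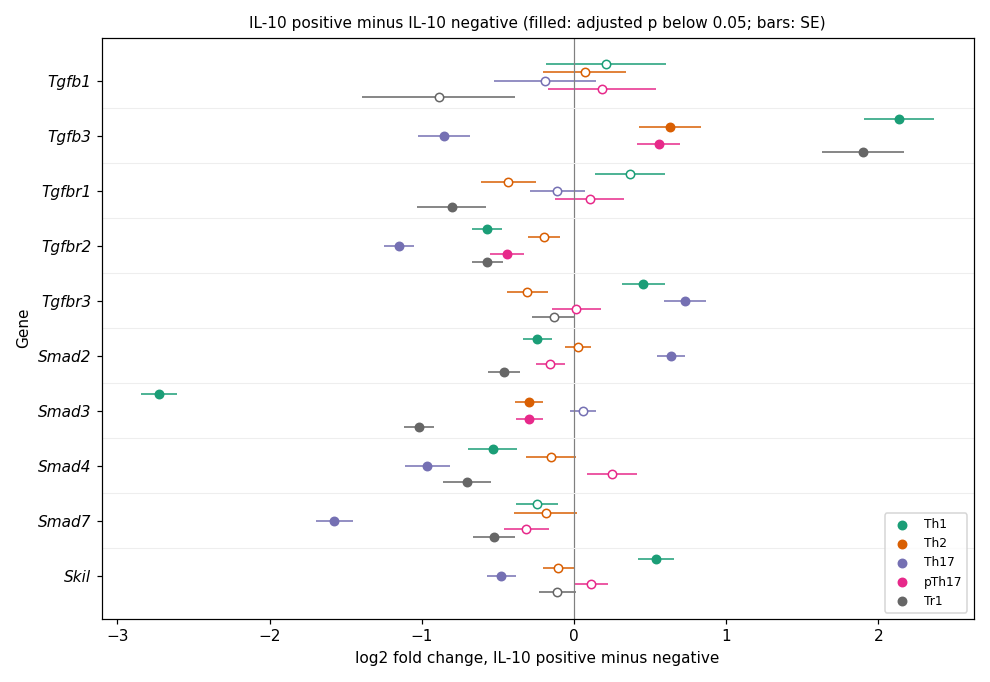
Log2 fold change of each member, IL-10 positive minus IL-10 negative, in the 5 cultures (colours), with bars for 1 SE; filled points had an adjusted p below 0.05 in edgeR. Smad3 lies far left in Th1 (-2.73) and near 0 in Th17 (0.06), and Tgfb3 lies to the right in 4 cultures and to the left in Th17 (-0.85).

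Of the ligand genes, Tgfb3 differed between the IL-10 compartments, in a direction that depended on the culture, and Tgfb1 had few counts. Tgfb1 (chromosome 7, 25687002 to 25705077, GRCm38.p6) encodes the ligand isoform that was also added, as protein, to Th17 cultures. Its libraries held only 3 to 58 counts, and group means ran from 0.937 CPM in Tr1 IL-10 positive cells to 4.62 CPM in Th2 IL-10 positive cells, with each neighbouring pair in that order overlapping. The Th2 IL-10 positive libraries, at 4.39 to 4.79 CPM, still lay above every library outside Th2, of which the highest stood at 3.50 CPM. Th2 was not set against the other cultures in a comparison of its own. No comparison called Tgfb1 on the counts; limma on log2(TPM + 1) called it in IL-10 negative cells for Th17 minus pTh17 (0.55; adjusted p = 0.0377) and minus the other 4 cultures (0.45; adjusted p = 0.0329). At this depth its interval stayed wide: in Th17 minus pTh17 IL-10 negative cells the log2 difference was 0.43 ± 0.35 (SE), with a 95% interval of -0.31 to 1.17.

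Tgfb3 (chromosome 12, 86056743 to 86079041) encodes another isoform of the ligand, one that Th17 cells are known to make. In pTh17 its 3 IL-10 negative libraries stood at 48.6, 52.2 and 61.3 CPM and the 3 positive ones at 73.8, 81.9 and 83.1 CPM, the highest values of the series. In Th17 the order was the other way round, with 22.8, 24.3 and 26.6 CPM in IL-10 negative and 15.2, 13.6 and 11.97 CPM in positive libraries. The compartments did not overlap in either culture, and the log2 differences were 0.56 ± 0.14 in pTh17 (SE; edgeR, adjusted p = 0.00354) and -0.85 ± 0.17 in Th17 (edgeR, adjusted p = 4.86e-05). The Th1 libraries rose from 2.70, 3.22 and 5.82 to 20.0, 19.2 and 14.5 CPM, a log2 difference of 2.13 ± 0.23 (edgeR, adjusted p = 6.82e-10). The Tr1 libraries rose from 3.05, 3.60 and 3.70 to 12.5, 15.02 and 11.3 CPM, by 1.90 ± 0.27 (edgeR, adjusted p = 4.84e-07). For Th2 the values were 5.64, 4.66 and 6.26 against 12.4, 7.02 and 6.27 CPM, so 1 library, IL-10 positive replicate 7, held most of the difference. Its call (0.63 ± 0.20; edgeR, adjusted p = 0.0207) ended without that library (0.26; adjusted p = 0.427), without IL-10 negative replicate 8 (0.53; adjusted p = 0.110) and in a fit of the 6 Th2 libraries alone (0.61; adjusted p = 0.0653). The mean difference over the cultures was 0.87 ± 0.09 (edgeR, adjusted p = 2.69e-10), an average over opposite signs.

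The receptor gene Tgfbr2 was lower in IL-10 positive cells wherever it was called. Tgfbr2 (chromosome 9, 116087695 to 116175363) encodes the type II receptor that binds the ligand, and its promoter window is the first of those printed above. In Th17 the IL-10 negative libraries stood at 406, 477 and 424 CPM and the positive ones at 206, 199 and 185 CPM. The groups were far apart, with a log2 difference of -1.15 ± 0.10 (SE; edgeR, adjusted p = 7.18e-13). Tr1 libraries fell from 337, 356 and 338 to 221, 225 and 248 CPM, by 0.57 ± 0.10 on the log2 scale (edgeR, adjusted p = 2.00e-05). Th1 libraries fell from 206, 274 and 245 to 149, 184 and 155 CPM, also by 0.57 ± 0.10 (edgeR, adjusted p = 1.15e-05). The smaller decrease in pTh17, from 84.2, 94.4 and 92.7 to 62.5, 66.9 and 70.8 CPM, was called too (-0.44 ± 0.11; edgeR, adjusted p = 0.00291), though not by limma on log2(TPM + 1) (adjusted p = 0.0623). In these 4 cultures the compartments did not overlap. Th2 libraries overlapped, at 76.2, 80.0 and 56.3 against 52.4, 66.5 and 66.4 CPM, and were not called (-0.20 ± 0.10; edgeR), although without Th2 IL-10 negative replicate 9 the difference was -0.34 (edgeR, adjusted p = 0.0181). Over the groups the level fell in the order Th17 negative, Tr1 negative, Th1 negative and Tr1 positive, Th17 positive, Th1 positive, pTh17 negative, and last both Th2 groups with pTh17 positive; Th1 negative and Tr1 positive overlapped, as did neighbours among the last 3. For the mean over the cultures the difference was -0.58 ± 0.05 (edgeR, adjusted p = 6.71e-14).

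Tgfbr1 was called between compartments in 1 culture and Tgfbr3 in 2, beside 4 for Tgfbr2. Tgfbr1 (chromosome 4, 47353222 to 47414926) encodes the type I receptor kinase. Its Tr1 libraries stood at 15.8, 25.7 and 19.9 CPM in IL-10 negative and 12.97, 9.42 and 13.07 CPM in positive cells, without overlap, a log2 difference of -0.80 ± 0.23 (edgeR, adjusted p = 0.00521). The Th17 compartments overlapped, at 20.2, 27.4 and 32.2 against 26.9, 20.0 and 27.2 CPM (-0.11 ± 0.18), and the gene was not called in Th1, Th2 or pTh17. In Th2 (-0.43 ± 0.18; adjusted p by edgeR = 0.0856) it came past the threshold without the filter on low counts (-0.43; adjusted p = 0.0280), in a fit of the 6 Th2 libraries alone (-0.46; adjusted p = 0.0152) and once IL-10 positive replicate 7 was left out (-0.58; adjusted p = 0.0439).

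Tgfbr3 (chromosome 5, 107106567 to 107289629) encodes betaglycan, a co-receptor that presents the ligand to the type II receptor. Th17 libraries rose from 24.1, 21.1 and 32.0 CPM to 45.9, 39.1 and 43.2 CPM, a log2 difference of 0.73 ± 0.14 (edgeR, adjusted p = 2.35e-05), opposite in sign to that of Tgfbr2 in the same libraries. Th1 libraries went from 24.3, 28.8 and 27.6 to 34.96, 33.4 and 42.8 CPM (0.46 ± 0.14; edgeR, adjusted p = 0.00891). Th1 IL-10 positive replicate 6 carried that call, which was lost without it (0.34; adjusted p = 0.0854). The highest group was Tr1 IL-10 negative, at 46.5 ± 1.45 CPM (SD, n = 3), overlapping the next 2, and the lowest were the pTh17 groups at 17.6 ± 1.73 and 17.5 ± 1.88 CPM. A small mean difference of 0.15 ± 0.06 (edgeR, adjusted p = 0.0405) was lost when any of 14 of the 30 libraries was left out.

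The Smads that carry the signal behaved differently from each other. Smad3 (chromosome 9, 63646766 to 63757994) encodes a receptor-activated Smad that binds DNA. Its Th1 IL-10 negative libraries stood at 52.7, 57.8 and 55.8 CPM and the positive ones at 8.92, 7.81 and 8.52 CPM, the widest gap of any member between compartments. The log2 difference was -2.73 ± 0.12 (SE; edgeR, adjusted p = 3.10e-21). In Tr1 it fell from 79.0, 67.6 and 72.7 to 34.2, 36.3 and 37.7 CPM, by 1.02 ± 0.10 on the log2 scale (edgeR, adjusted p = 1.66e-10). Smad3 in Th17 overlapped between compartments, at 79.1, 71.5 and 74.6 against 73.7, 86.9 and 73.9 CPM, and was not called (0.06 ± 0.09; edgeR, adjusted p = 0.582). Small differences in Th2, from 40.4, 43.8 and 35.3 to 33.4, 31.1 and 32.6 CPM (-0.30 ± 0.09; edgeR, adjusted p = 0.0165), and in pTh17, from 73.2, 80.7 and 80.1 to 71.2, 62.5 and 56.7 CPM (-0.29 ± 0.09; edgeR, adjusted p = 0.0152), did not survive the loss of some libraries. Those were Th2 IL-10 negative replicate 7 or 8 or positive replicate 8 (adjusted p from 0.0565 to 0.146), and replicate 14 or 15 of either pTh17 compartment (adjusted p from 0.0521 to 0.131). The mean over the cultures was -0.86 ± 0.04 (edgeR, adjusted p = 2.38e-19).

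Smad2 (chromosome 18, 76241090 to 76311748), the other Smad activated by this receptor, was highest in Th17 IL-10 positive cells. Those libraries stood at 102, 101 and 99.8 CPM, against 67.7, 63.5 and 63.0 CPM in the negative ones, a log2 difference of 0.64 ± 0.09 (edgeR, adjusted p = 1.22e-07). No other group reached that level, the next being Th2 IL-10 positive cells at 72.6 ± 6.08 CPM (SD, n = 3). In Tr1 the direction was the reverse, from 72.3, 54.3 and 56.6 to 43.4, 43.3 and 46.1 CPM (-0.46 ± 0.10; edgeR, adjusted p = 5.31e-04). A Th1 difference of -0.24 ± 0.10 (edgeR, adjusted p = 0.0415) was not stable: it ended without replicate 4 or 6 of either Th1 compartment (adjusted p from 0.0592 to 0.297; -0.14 without IL-10 positive replicate 6) and under 4 other settings, among them DESeq2 (adjusted p = 0.125).

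Smad4 (chromosome 18, 73634790 to 73703791), the common partner of the activated Smads, was lower in IL-10 positive cells of Th1, Th17 and Tr1. Th17 libraries fell from 27.2, 33.0 and 28.5 to 14.2, 16.5 and 14.8 CPM, by 0.96 ± 0.15 on the log2 scale (edgeR, adjusted p = 8.06e-07). Tr1 libraries fell from 31.5, 36.3 and 33.4 to 20.3, 23.2 and 18.6 CPM, by 0.70 ± 0.16 (edgeR, adjusted p = 6.20e-04). Neither pair overlapped, whereas in Th1 the values 27.0, 14.97 and 23.7 overlapped with 15.97, 12.8 and 16.4 CPM. The Th1 call (-0.53 ± 0.16; edgeR, adjusted p = 0.0065) ended without IL-10 negative replicate 4 (adjusted p = 0.0822) or positive replicate 5 (adjusted p = 0.0581). In pTh17 the means were 13.8 ± 2.55 and 16.4 ± 1.20 CPM (SD, n = 3), with no call.

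The feedback gene Smad7 had its steepest difference in Th17. Smad7 (chromosome 18, 75367365 to 75395935) encodes an inhibitory Smad that blocks the type I receptor and directs it to degradation. Its Th17 libraries stood at 41.4, 46.2 and 43.5 CPM in IL-10 negative and 14.9, 13.5 and 15.5 CPM in positive cells, a log2 difference of -1.57 ± 0.12 (edgeR, adjusted p = 6.08e-14). Tr1 libraries fell from 25.2, 30.3 and 29.5 to 20.5, 20.8 and 17.7 CPM, by 0.53 ± 0.14 on the log2 scale (edgeR, adjusted p = 0.00233). Both pairs of groups were without overlap. Smad7 was lowest in Th2, at 2.72 ± 0.289 and 2.39 ± 0.625 CPM (SD, n = 3), and was not called in Th1, Th2 or pTh17.

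Skil (chromosome 3, 31095058 to 31122923) encodes SnoN, a co-repressor that binds Smads and is itself degraded and then induced by the signal. It set the Th17 cultures apart: IL-10 negative libraries stood at 175, 196 and 218 CPM and positive ones at 151, 132 and 141 CPM, while no library of the other cultures was above 57.9 CPM. Within Th17 the compartments differed by -0.48 ± 0.09 (edgeR, adjusted p = 4.58e-05) without overlap. In Th1 the direction was opposite, from 30.3, 31.7 and 41.5 to 55.8, 49.7 and 46.6 CPM (0.54 ± 0.12; edgeR, adjusted p = 1.96e-04). In Th2, pTh17 and Tr1 the compartments overlapped and Skil was not called, and all 8 groups outside Th17 lay between 34.5 and 54.8 CPM on average.

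Whether the IL-10 difference itself varied with the culture was tested directly. The test that it was equal in the 5 cultures called 9 of 10 members, all but Tgfb1, where 60.7% of all genes were called. Set against pTh17 alone, the difference in Th17 departed for 8 members, 3 upward and 5 downward, where 43.2% of all genes were called (23.3% and 19.9%). The downward ones were Tgfb3 (-1.41 ± 0.22, SE), Smad7 (-1.26 ± 0.19), Smad4 (-1.21 ± 0.22), Tgfbr2 (-0.71 ± 0.15) and Skil (-0.59 ± 0.15). The upward ones were Smad2 (0.79 ± 0.13), Tgfbr3 (0.71 ± 0.21) and Smad3 (0.35 ± 0.12). Of these calls only that of Smad3 (edgeR, adjusted p = 0.0203) was lost when 1 library was left out, namely Th17 IL-10 positive replicate 11 (0.28; adjusted p = 0.0852) or pTh17 IL-10 positive replicate 15 (0.29; adjusted p = 0.0732). On log2(TPM + 1) in limma, Tgfbr3 (0.48; adjusted p = 0.0733) and Smad3 (0.13; adjusted p = 0.465) were not called. In the same contrast all 12 cell cycle genes departed upward, and their part in the members' values was not tested.

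The culture given TGF-beta was next compared with the rest, within each compartment. Against the mean of the other 4 cultures, IL-10 negative Th17 cells had 7 of 10 members called, all higher, where 51.8% of all genes were called (25.6% higher and 26.2% lower). That mean averaged the log2 levels of the 4 groups, so a difference can depart from the ratio of CPM means. Skil led with 2.16 ± 0.07 on the log2 scale (SE), a 4.47-fold difference (edgeR, adjusted p = 4.46e-25). Smad7 (1.97 ± 0.09), Tgfb3 (1.60 ± 0.15), Tgfbr2 (1.52 ± 0.07), Tgfbr1 (0.91 ± 0.15), Smad4 (0.68 ± 0.12) and Smad3 (0.33 ± 0.07) followed. For Skil, Smad7 and Tgfbr2 every Th17 library was above all 12 libraries of the other cultures, a state in which 5.12% of all genes were found. Tgfb3 was not above them all, since the pTh17 libraries held more. Its CPM means were 24.6 in Th17 and 16.7 over the other 4 groups. Tgfbr3 (-0.14 ± 0.12) and Smad2 (0.14 ± 0.07) were not called; leaving out Th17 IL-10 negative replicate 12 brought Tgfbr3 to -0.33 (edgeR, adjusted p = 0.0490), and leaving out Tr1 IL-10 negative replicate 16 brought Smad2 to 0.17 (edgeR, adjusted p = 0.0349). On log2(TPM + 1) limma also called Smad2, at 0.47 (adjusted p = 1.34e-05).

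IL-10 positive Th17 cells differed from the other 4 cultures in 8 members, 7 higher and 1 lower, where 57.2% of all genes were called (29.7% and 27.5%). The widest differences were those of Skil (1.57 ± 0.07, SE), Smad3 (1.48 ± 0.07), Tgfbr1 (1.00 ± 0.14) and Smad2 (0.99 ± 0.07), and for these 4 every Th17 library was above the other 12. Such separation upward was found for 6.16% of all genes. Tgfbr2 (0.82 ± 0.08), Smad7 (0.72 ± 0.11) and Tgfbr3 (0.58 ± 0.10) were higher with overlap, Tgfb3 was lower (-0.55 ± 0.14; not called by limma on log2(TPM + 1), -0.32, adjusted p = 0.0589), and Smad4 was at 0.0043 ± 0.12. The value for Smad3 rests in part on the low Th1 group, since pTh17 IL-10 positive libraries reached 71.2 CPM. Tr1 libraries were all above the Th17 ones for Tgfbr2 (220.9 to 247.9 against 184.6 to 206.3 CPM). The same held for Smad7 (17.7 to 20.8 against 13.5 to 15.5 CPM). Smad7 averaged 14.5 CPM in Th1 beside 14.7 CPM in Th17, and Tgfbr3 averaged 42.7 CPM in both Tr1 and Th17. Tgfb3 averaged 79.6 CPM in pTh17 and 13.6 CPM in Th17. Its means were 17.9 CPM in Th1, 12.9 in Tr1 and 8.58 in Th2, so the lower value rests mainly on pTh17.

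Th17 minus pTh17 is the closest pair, because both received IL-6. In each compartment 8 of 10 members were called, 7 higher and 1 lower, where 56.7% of all genes were called in the positive (28.9% and 27.8%) and 60.0% in the negative compartment (28.9% and 31.1%). The lower one was Tgfb3 in both, at -2.55 ± 0.16 in positive cells (SE; edgeR, adjusted p = 7.38e-17) and -1.14 ± 0.16 in negative cells (edgeR, adjusted p = 6.24e-08). Skil was higher by 1.64 ± 0.10 in positive and 2.23 ± 0.10 in negative cells, Tgfbr2 by 1.56 ± 0.11 and 2.27 ± 0.10, and Tgfbr1 by 1.31 ± 0.20 and 1.53 ± 0.21. Smad7 was higher by 0.66 ± 0.14 and 1.92 ± 0.13, Smad2 by 1.26 ± 0.09 and 0.46 ± 0.10, and Tgfbr3 by 1.27 ± 0.14 and 0.56 ± 0.15. Smad4 was higher in negative cells alone by call (1.10 ± 0.16, against -0.11 ± 0.16 in positive cells), and Smad3 in positive cells (0.30 ± 0.09, against -0.06 ± 0.09). The Smad3 call was lost without Th17 IL-10 positive replicate 11 (0.22; adjusted p by edgeR = 0.0535). The Tgfbr3 call in negative cells was lost without Th17 IL-10 negative replicate 12 (0.36; adjusted p by edgeR = 0.0601). The members' median was 0.96 in positive and 0.83 in negative cells, beside -0.00 and 0.01 for all genes. In negative cells all 12 cell cycle genes were lower in Th17, with a sum of 403.5 to 508.7 CPM against 1589 to 1731 CPM in pTh17, and their part was not tested. In positive cells 5 of 5 tested B cell genes and 4 of 5 tested myeloid genes were lower in Th17, with sums of 1.94 to 3.37 against 34.3 to 58.1 CPM and 1.16 to 4.30 against 13.1 to 19.6 CPM, and their part was not tested either.

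**Figure D3:**
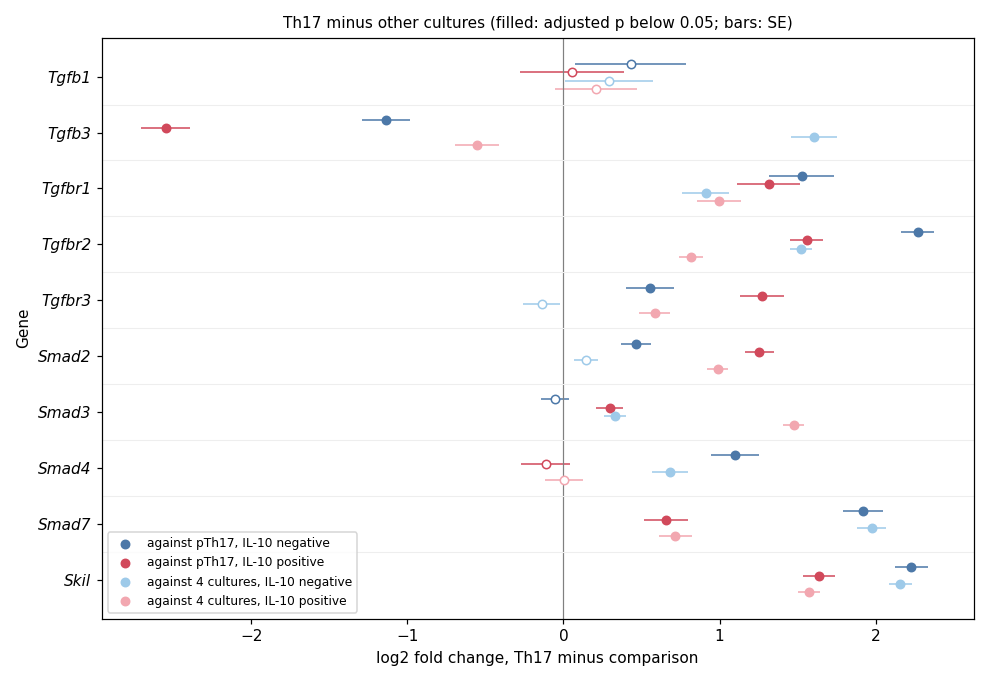
Log2 fold change of each member in Th17 against the mean of the other 4 cultures and against pTh17, in IL-10 positive and IL-10 negative cells, with bars for 1 SE; filled points had an adjusted p below 0.05 in edgeR. Skil lies between 1.57 and 2.23 in all 4 comparisons, and Tgfb3 is negative except against the mean of the other 4 cultures in IL-10 negative cells (1.60).

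Other genes of the pathway, from lists of ligand processing, receptors, Smad partners, regulators and induced genes, were read in the same Th17 and pTh17 groups. A list of 13 regulators of the signal, all tested, was drawn up as negative regulators. It also held Rnf111, Usp4, Usp11 and Usp15, which can promote the signal, so its counts are not those of inhibitors alone. In Th17 IL-10 negative cells 10 of the 13 were higher and 0 lower, with a median of 0.71. Of all tested genes there, 28.9% were higher and 31.1% lower. In positive cells 8 were higher and 1 lower, with a median of 0.65, where 28.9% of all genes were higher and 27.8% lower. Ldlrad4 encodes a membrane protein that binds Smad2 and Smad3 and keeps them from the receptor. It averaged 30.9 ± 1.94 CPM in Th17 against 5.64 ± 0.130 CPM in pTh17 IL-10 negative libraries (SD, n = 3). For Ldlrad4 the log2 difference was 2.45 ± 0.16 (SE, edgeR, adjusted p = 5.20e-16). Its relative Pmepa1 averaged 22.7 ± 2.85 against 4.46 ± 0.617 CPM (2.35 ± 0.18), and the ubiquitin ligase gene Smurf1, whose product acts with Smad7, differed by 1.37 ± 0.17. Ski, the close relative of Skil, averaged 110.4 ± 14.03 against 52.0 ± 2.01 CPM (1.09 ± 0.09). In positive cells the widest of these were Ldlrad4 (2.53 ± 0.18), the ubiquitin ligase gene Wwp1 (1.71 ± 0.10) and Pmepa1 (1.32 ± 0.18), with Nedd4l as the lower one (-0.85 ± 0.22).

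Of 12 ligand processing genes listed, 7 passed the filter. In IL-10 positive cells 6 were lower and 1 higher in Th17 than in pTh17 (median -1.48), where 27.8% of all genes were lower and 28.9% higher. In negative cells 4 were lower and 1 higher (median -2.00), where 31.1% of all genes were lower and 28.9% higher. Lrrc32 encodes GARP, which anchors latent TGF-beta on the cell surface. It averaged 4.07 ± 1.82 CPM in Th17 and 65.4 ± 2.82 CPM in pTh17 positive libraries (SD, n = 3), a log2 difference of -4.00 ± 0.20 (SE; edgeR, adjusted p = 5.81e-20). Ltbp3, whose product binds latent TGF-beta in the matrix, had 0 counts in the 3 Th17 IL-10 negative libraries and 246 over the 3 of pTh17, at least 64.1-fold lower taking 3 counts in the group's total as the floor, which covers counting error only. Furin, the protease that cuts the ligand precursor, averaged 39.2 ± 0.637 CPM in Th17 and 157.4 ± 1.12 CPM in pTh17 negative libraries (-2.00 ± 0.07). Lrrc32 and Ltbp3 sat with Tgfb3 on the pTh17 side.

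Among the 9 tested receptors of the wider family, 1 was higher and 4 lower in Th17 positive cells and 2 higher and 3 lower in negative cells. These 5 of 9 in either compartment lie near the 56.7% and 60.0% of all genes called there, so the counts say nothing particular about the receptors, and the short lists that follow are to be read against the same shares. Acvr2a, a type II receptor for activins, stood at 64.9 to 95.4 CPM in Th17 IL-10 negative and 31.6 to 35.8 CPM in positive libraries, and no group of another culture averaged above 7.54 CPM. Its differences from pTh17 were 4.42 ± 0.20 and 2.88 ± 0.20 (SE; edgeR, adjusted p = 5.35e-21 and 3.15e-15). Acvrl1 (-2.06 ± 0.14 in positive cells) and Eng (-1.63 ± 0.31), a receptor and co-receptor known from blood vessels, were lower. Of 10 Smad partners in transcription, 5 were higher and 3 lower in positive and 7 higher and 2 lower in negative cells, with Runx1 at 0.47 ± 0.11 and 1.32 ± 0.12 and Runx3 at -1.24 ± 0.08 and -0.67 ± 0.08. Of 5 other Smads and adaptors, 0 were higher and 1 lower in positive and 3 higher and 0 lower in negative cells, with Hgs at 0.65 ± 0.09. For 8 genes of non-Smad signalling the counts were 4 higher and 2 lower in positive and 4 higher and 1 lower in negative cells, with Traf6, a ubiquitin ligase bound by the receptors, at 1.08 ± 0.10 in positive cells.

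The list of 17 tested genes that TGF-beta can induce was split. It had 8 higher and 7 lower in Th17 IL-10 negative cells (median -0.01), where 28.9% of all genes were higher and 31.1% lower, and 4 higher and 9 lower in positive cells (median -0.60), where 28.9% were higher and 27.8% lower. The higher side held Ldlrad4, Pmepa1 and Ski, which are also on the list of regulators, and in negative cells Nrp1 (2.72 ± 0.18, SE). On the lower side were Cdkn1a, a cell cycle inhibitor, at -4.11 ± 0.18 in negative and -2.46 ± 0.13 in positive cells, and the chemokine receptor gene Ccr8 at -2.64 ± 0.17 and -2.50 ± 0.15. Gpr83 stood on both, at 2.11 ± 0.13 in negative and -1.54 ± 0.15 in positive cells.

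**Figure D4:**
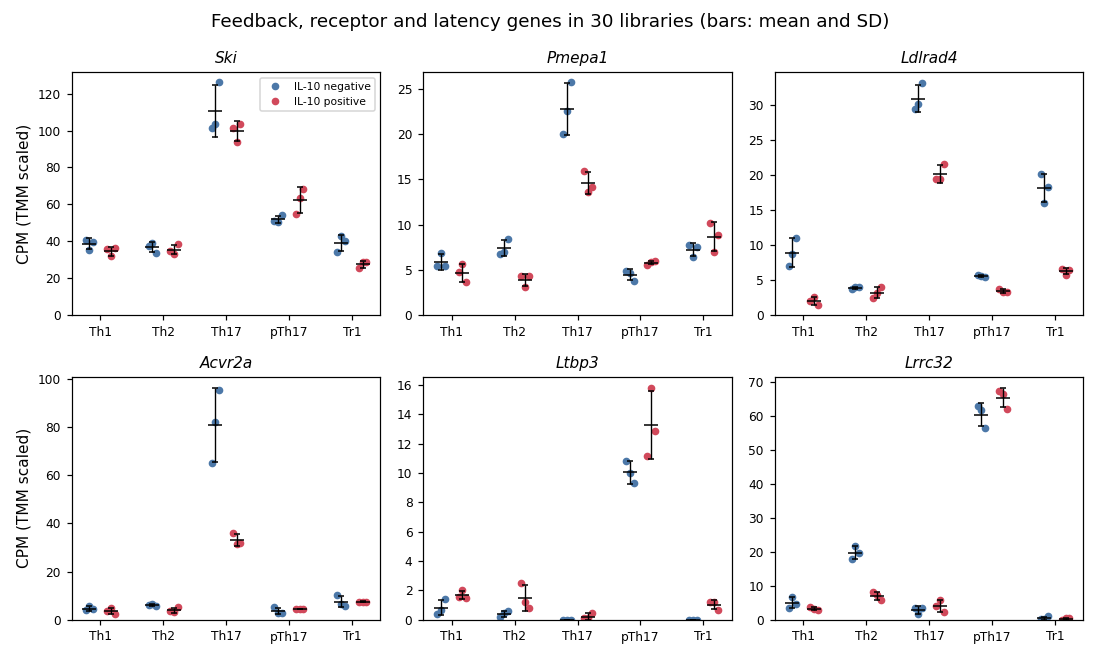
Levels in CPM (TMM scaled, linear axes) of 6 other pathway genes in the 30 libraries by culture, blue for IL-10 negative and red for IL-10 positive, with bars for the mean and SD of 3. Ski, Pmepa1, Ldlrad4 and Acvr2a are highest in the Th17 cultures, whereas Ltbp3 and Lrrc32 are highest in pTh17 (13.3 and 65.4 CPM in IL-10 positive cells).

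Across the 10 group means of log2 CPM the members fell into loose patterns, described here without a test because the groups share cultures and scaling. Tgfbr2 and Smad7 correlated at 0.90, Smad4 and Smad7 at 0.89 and Tgfbr2 and Smad4 at 0.88 (Pearson's r, n = 10 groups). Tgfbr1 correlated with Skil at 0.78 and with Smad2 at 0.76. Of the genes with at least 5 CPM, those most like Tgfbr2 were Ehd3 (0.985), Zmym5 (0.980) and Stxbp3a (0.980), and those most like Smad7 were Acox3 (0.985), Btg1 (0.973) and Tnks2 (0.972). For Skil they were Cnot11 (0.955), Acvr2a (0.943) and Rnf25 (0.940), and for Smad4 Rbm26 (0.976), Apc (0.975) and Zxda (0.973). Smad3 was most like Cacfd1 (0.945) and Rftn1 (0.939), Smad2 most like Gapvd1 (0.960), Rprd1b (0.959) and Edc3 (0.948), and Tgfb3 less closely like Sigirr (0.912), Sh2b1 (0.891) and Malt1 (0.890). The closest gene to Tgfb1 was Oat (0.958), to Tgfbr1 Pbrm1 (0.924) and to Tgfbr3 Spast (0.892).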

How the data were processed

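RNA of 30 libraries in 10 groups was turned into libraries by adapting SMART-Seq2, per the labels' protocols, a method that marks neither strand nor molecules. Per the file headers, the authors deposited expected counts, RSEM's estimates that can be fractions. TPM, which adjusts for depth and gene length, was also deposited in these tables. The submitters' processing notes name RSEM and mm10. RSEM's version, like the aligner, is not given in the sources used here. Reads matching more than 1 gene are divided by RSEM's model. Without strand, reads of Tgfbr1, Tgfbr2, Tgfbr3, Smad3 and Smad7 cannot be told apart from those of the lncRNA or pseudogene models that overlap them (Gm32435, Gm31292, Gm8145, Gm51710 and Gm41776).

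Groups and replicate numbers came from the titles. Because the protocol text calls either compartment Thy1.1 positive, the titles decided. They do not say that replicates were separate cultures or animals, so p-values reflect only how these libraries vary, which may be technical. Expected counts were rounded, filtered with filterByExpr and scaled by TMM. edgeR 4.0.16 (R 4.3.3) was run as its quasi-likelihood test on 1 model of 30 libraries, with group means and without covariates, in 12 comparisons. Tests were two-sided, with Benjamini-Hochberg adjustment over 12611 genes and calls below 0.05. The SE is the absolute log2 difference divided by the root of F, and a 95% interval used 20 residual degrees of freedom. Log CPM used a prior count of 2. Scripts were also tested on data simulated from the fit to these libraries, in which the changes were known. Alternatives were median of ratios size factors, DESeq2 1.42.0, no filter, the title number as a block, fits of the compared groups alone, limma 3.58.1 on log2(TPM + 1), and each library left out in turn.

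The members and gene lists were chosen with earlier results of these data known. Named were all 10 members, up to 4 called genes per list and comparison with at least 5 CPM in a group, the 3 genes most like each member in 10 group means, and Il10, Thy1, Il17a and Foxp3 as checks; some genes that this rule names are not reported here. Ltbp3, Lrrc32, Acvr2a, Pmepa1, Ldlrad4 and Ski were plotted after their values were seen. Nrros is listed as Lrrc33 in the tables. Coordinates and promoters came from RefSeq for GRCm38.p6, the assembly that mm10 names.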

Additional observations from a re-analysis of the deposited data

Results flagged for a closer look

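The IL-10 difference was not equal over the 5 cultures for 9 members, by the test of equality in edgeR. The adjusted p was 1.05e-17 for Smad3, 8.49e-11 for Tgfb3, 7.22e-08 for Smad2, 1.04e-07 for Smad7, 9.24e-06 for Skil, 9.52e-06 for Tgfbr2, 7.73e-05 for Tgfbr3, 1.17e-04 for Smad4 and 0.0129 for Tgfbr1. Since 60.7% of all genes passed the same test, this was common in these data.

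For 8 members the difference in Th17 departed from that in pTh17 (edgeR), by -1.41 for Tgfb3, -1.26 for Smad7, -1.21 for Smad4, -0.71 for Tgfbr2 and -0.59 for Skil, and by 0.79 for Smad2, 0.71 for Tgfbr3 and 0.35 for Smad3 on the log2 scale. Tgfb3 is the member called in opposite directions in the 2 cultures, lower in IL-10 positive Th17 cells and higher in IL-10 positive pTh17 cells.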

How the results depend on the processing

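Member values kept their sign and side of the threshold in 117 cases each with median of ratios, DESeq2 and no filter, in 94 with limma on log2(TPM + 1), in 85 with the compared groups alone and in 1371 with a library left out. In a fit of the 6 Th2 libraries Tgfbr1 (-0.46; adjusted p = 0.0152) and Tgfbr3 (-0.34; adjusted p = 0.0108) were called. With limma on log2(TPM + 1), 0 members were called in Th2 and 1 in pTh17, against 2 and 3 in edgeR, and leaving out 1 Th2 library gave 0 to 3. On the TPM scale the median of all genes shifted to 0.30 for Th17 minus pTh17 and 0.28 for Th17 minus the other cultures in IL-10 negative cells, and to 0.13 and 0.16 in positive cells. For the IL-10 difference in Th17 that median moved to -0.13. The splits of all calls moved with it: 6100 higher and 2531 lower against 3646 and 3918 in edgeR for Th17 minus pTh17 negative, 4686 and 2642 against 3646 and 3505 for positive, 6560 and 1961 against 3234 and 3298 for Th17 minus the others negative, 5429 and 2474 against 3740 and 3474 for positive, 2987 and 4499 against 3688 and 3650 for the IL-10 difference in Th17, 1624 and 670 against 1277 and 1050 in pTh17, and 2080 and 3772 against 2940 and 2509 for the difference of these. Without the filter the Tr1 split was 2058 higher and 2340 lower against 2591 and 1786. Signs turned in limma on TPM for Smad3 in Th17 (-0.090), Smad4 in Th17 minus pTh17 positive (0.049), Tgfbr3 in Th17 minus the others negative (0.18) and Smad3 in Th17 minus pTh17 negative (0.32; adjusted p = 0.00565), the last being called there; relative to the shift of 0.30 that value is small, and the cause was not tested. Signs of values near 0 also turned for Smad2 in Th2 in a fit of 6 libraries (-0.0014), for the mean of Skil (0.0093 with median of ratios, 0.0098 with DESeq2) and for Smad4 in Th17 minus the others positive (-4.2e-04 and -6.1e-04).

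Leaving out single libraries turned the sign only of uncalled values. Their ranges were -0.013 to 0.45 for Tgfb1 in Th1, -0.043 to 0.091 for Smad2, -0.32 to 0.019 for Smad7 and -0.13 to 0.25 for Tgfb1 in Th2, and -0.019 to 0.11 for Smad3, -0.38 to 0.0066 for Tgfb1 and -0.26 to 0.058 for Tgfbr1 in Th17. In pTh17 they were -0.081 to 0.38 for Tgfbr1 and -0.074 to 0.11 for Tgfbr3, and in Tr1 -0.29 to 0.088 for Tgfbr3. For the mean of Skil the range was -0.033 to 0.028, for Smad4 in Th17 minus the others positive -0.060 to 0.054, and for Tgfb1 in Th17 minus pTh17 positive -0.19 to 0.23. The mean of Tgfbr1 came past the threshold without Th1 IL-10 negative replicate 4 (-0.22; edgeR, adjusted p = 0.0354) and without the filter (-0.18; adjusted p = 0.0487).

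With the replicate number as a block, 7 members were called in Th1, 2 in Th2, 7 in Th17, 3 in pTh17, 7 in Tr1, 6 in the mean, 9 in the test of equality and 8 in the difference of differences, as without it, and no member's call changed. The titles do not say whether same-numbered compartments came from the same culture. Their deviations from the group means correlated at -0.046 to 0.055 over 15 pairs, with 7 libraries correlating best with their own number. With 3 libraries per group, these correlations cannot decide it. Between cultures no block was possible, since the cultures share no numbers. Tgfb1, with 3 to 58 counts per library, is the member that depth limits.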

Other observations

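Furin, the protease that matures the TGF-beta precursor, was higher in IL-10 positive cells of 4 cultures. Its group means went from 665.0 ± 35.5 to 1763 ± 46.6 CPM in Th1, from 38.1 ± 1.66 to 105.7 ± 6.27 in Th2, from 39.2 ± 0.637 to 190.1 ± 10.3 in Th17 and from 157.4 ± 1.12 to 418.6 ± 12.5 in pTh17 (SD, n = 3). The log2 differences were 1.41 ± 0.06, 1.47 ± 0.06, 2.28 ± 0.07 and 1.41 ± 0.06 (SE), with edgeR's adjusted p from 1.58e-26 in Th17 to 1.86e-20 in Th2. In Tr1 the level was 13.9 ± 1.86 and 14.2 ± 0.329 CPM, and Furin was not called.

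The inhibitor gene Ldlrad4 was lower in IL-10 positive cells of Th1 (-2.13 ± 0.22, SE), Tr1 (-1.53 ± 0.19), pTh17 (-0.69 ± 0.21) and Th17 (-0.61 ± 0.14), as called by edgeR, and was not called in Th2 (-0.30 ± 0.20). Wwp1, another inhibitor gene, was higher in Th17 (1.40 ± 0.10), Th1 (0.82 ± 0.12), Th2 (0.43 ± 0.11) and pTh17 (0.41 ± 0.11), with no call in Tr1 (-0.38 ± 0.15). In Th17, 3 of the 13 listed regulators, not all of them inhibitors, were higher and 7 lower in IL-10 positive cells. Of all tested genes there, 29.2% were higher and 28.9% lower.

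Gpr83, a receptor gene known from regulatory T cells, stood at 116.5 ± 5.46 CPM in Th17 IL-10 negative cells and 9.32 ± 2.73 CPM in positive ones (SD, n = 3), a log2 difference of -3.64 ± 0.14 (SE; edgeR, adjusted p = 3.82e-23). In pTh17 the same gene stood at 27.0 ± 2.25 and 27.2 ± 3.74 CPM, and the difference of differences was -3.65 ± 0.19 (edgeR, adjusted p = 4.43e-18). Nrp1, also known from regulatory T cells, went from 29.4 ± 2.19 to 9.40 ± 0.760 CPM in Th17 (-1.64 ± 0.16) and from 18.1 ± 5.47 to 33.7 ± 4.31 CPM in Tr1 (0.87 ± 0.16). Foxp3 averaged at most 2.47 CPM in any group, and that highest group was Th17 IL-10 negative. Its libraries there ran from 1.67 to 2.95 CPM, against 0.485 to 1.31 CPM in Th17 IL-10 positive cells.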
